A study of Mus musculus with 15 samples.

Results

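The 3 tumors labelled as lying at the boundary of the lesser curvature of the cardia, the stretch of stomach next to the esophagus, were set against the 9 tumors of the other sites in a series of 15 mouse stomach libraries. They were chosen by their labels alone. The comparison group was the equal-weight mean of 3 antrum tumors, 3 greater curvature tumors (also labelled as at a boundary within the cardia) and 3 corpus tumors, and the 3 normal libraries were left out of the fit. All 15 libraries, normals included, are labelled as C57BL/6 mice of 7 to 8 weeks that carry Pou2f3-CreERT, the floxed alleles Rb1fl/fl and Trp53fl/fl, and LSL-MycT58A, with tamoxifen (intraperitoneal, 50 mg/kg on a single day) and a time of 5 weeks. CreERT is driven by Pou2f3, the regulator that specifies tuft cells, which sense chemicals in the gut lumen. Tamoxifen activates it, and it deletes the tumor suppressors Rb1 and Trp53 and turns on a stabilized Myc. The labels call the replicates biological but name no animals, so p-values measure the spread between these libraries only, and the stomach region of the normal tissue is not given.

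The rodent stomach has a glandular part, which makes acid, pepsinogen and mucus, and a forestomach lined by a keratinized stratified squamous epithelium like that of the esophagus. The cardia is the glandular strip along their border. In such an epithelium basal cells carry keratins Krt5 and Krt14 and the transcription factor Trp63. Cells that move upward switch to suprabasal keratins and build a cornified envelope, a cross-linked protein shell under the surface, from loricrin, filaggrin, small proline-rich (Sprr) and late cornified envelope (Lce) proteins. Kallikrein proteases and their inhibitors then control how the surface cells are shed.

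Library totals ran from 7957165 counts in lesser curvature 2 to 21564972 in greater curvature 2, and the other lesser curvature totals were 16338129 and 17218092. Values are CPM, counts for every 1e+06 of the library size after TMM scaling, except where TPM, the per-length scale of the second deposited table, is named. Folds are ratios of mean CPM. The log2 fold changes beside them are edgeR contrasts that average the other sites on the log scale, so the 2 need not match. On the first principal component of the 12 tumors, with 50.82% of the variance, greater curvature 2 and corpus 1 lay at the end opposite to lesser curvature 1. Counts of Y-linked genes were low in lesser curvature 1, antrum 1, greater curvature 1, normal 1 and normal 2 (27 to 101) and 1499 to 3450 in the other 10 libraries, so the lesser curvature group, like the antrum and greater curvature groups, mixed both kinds.

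The lesser curvature tumors held a keratinized squamous program that the tumors of the other sites held at far lower levels. Of 16042 genes tested, 117 (0.729%) were called higher in the lesser curvature tumors, at an edgeR adjusted p under 0.05. None was called lower by edgeR, while 569 lower (3.55%) and 963 higher genes (6%) had an unadjusted p under 0.05, and DESeq2 called 111 lower (0.692%) and 233 higher (1.45%). The log2 fold changes of the called genes ran from 1.67 to 10.04, with a median of 6.43 (6.10 with the 46 genes that had a site at 0 counts set to their lower bound), beside a median of 0.02 over all genes tested. In 112 of the 117 all 3 lesser curvature tumors lay above all 9 others, which 1.93% of all tested genes did, and the exceptions included Sfmbt2, Pla2g4f, Il1f9 and Tmprss11d. Genes called from these same tumors tend to separate them, so that count is no further support for the calls. Of 21 squamous markers, 20 were tested, 18 had a log2 fold change above 0, 10 were called and 16 did not overlap between the groups. The median log2 fold change of the 20 was 5.64 (5.43 with 2 genes at their bound). Called squamous markers numbered 16 with DESeq2 or with limma on TPM, 13 without greater curvature 2, 4 without lesser curvature 2, 5 without lesser curvature 3, 5 without greater curvature 2 and corpus 1, and 0 with all 15 libraries in the model. Whether more squamous cells or more RNA per cell lay behind such a difference cannot be told apart in bulk tissue.

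**Figure D1:**
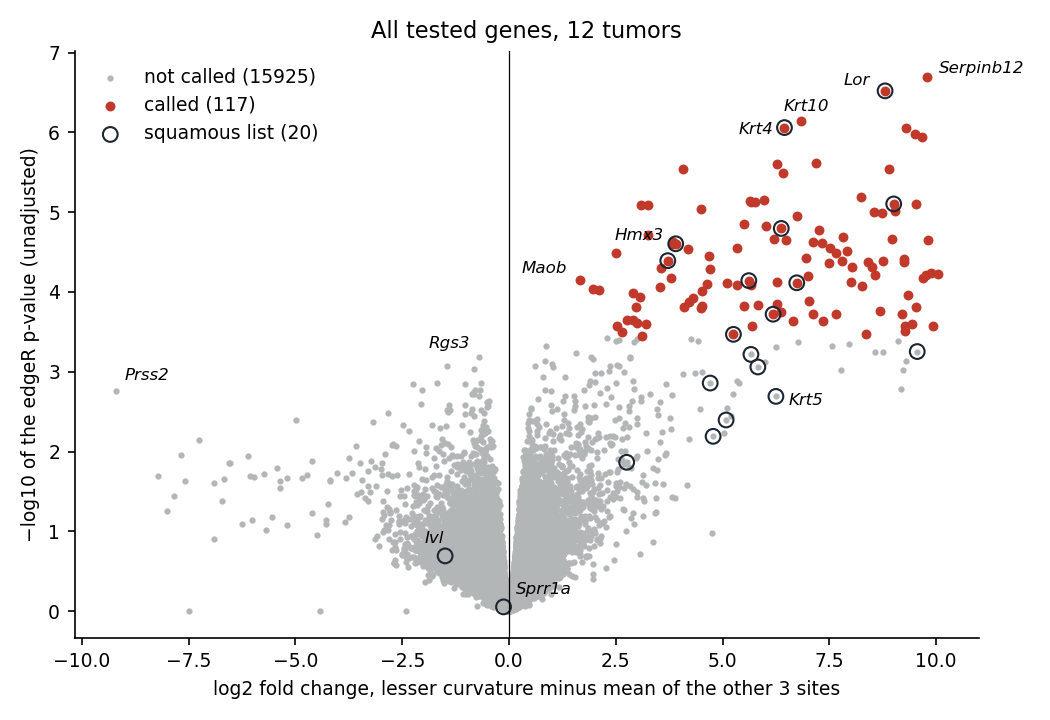
Each point is a tested gene, with the log2 fold change of the lesser curvature tumors over the mean of the other 3 sites on the x axis and minus log10 of the unadjusted edgeR p-value on the y axis. Red points are the 117 called genes, all on the right, and circles mark the 20 tested squamous markers, of which Ivl and Sprr1a lie left of 0.

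The promoter sequences of 4 called genes are shown to be read side by side. Lor and Flg are cornified envelope genes, Krt10 is a suprabasal keratin and Krtdap a marker of differentiating keratinocytes. The sequences are the 250 bases before the start site in RefSeq on GRCm38.p6, written 5′ to 3′ along the gene. The RefSeq starts of Flg and Krtdap lie inside the GENCODE spans given below, so the last bases of those windows overlap the spans. Capitals mark TGANTCA, where N is any base, and the TATA box letters TATAAA, both searched on both strands. Fos and Jun factors read TGANTCA as the AP-1 site where N is C or G, as in Lor and Krtdap. In Flg N is A.

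Lor, chr3:92083143-92083392, minus strand: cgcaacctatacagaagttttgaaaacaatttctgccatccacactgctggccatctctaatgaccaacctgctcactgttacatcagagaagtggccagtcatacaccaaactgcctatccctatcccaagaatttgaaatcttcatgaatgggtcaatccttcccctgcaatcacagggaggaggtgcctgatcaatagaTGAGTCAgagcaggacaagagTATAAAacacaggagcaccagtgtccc
Flg, chr3:93273296-93273545, plus strand: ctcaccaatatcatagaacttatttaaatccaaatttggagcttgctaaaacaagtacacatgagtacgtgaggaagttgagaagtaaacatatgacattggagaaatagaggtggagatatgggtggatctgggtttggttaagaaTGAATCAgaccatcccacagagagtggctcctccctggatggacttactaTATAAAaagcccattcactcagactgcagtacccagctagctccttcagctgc
Krtdap, chr7:30787655-30787904, plus strand: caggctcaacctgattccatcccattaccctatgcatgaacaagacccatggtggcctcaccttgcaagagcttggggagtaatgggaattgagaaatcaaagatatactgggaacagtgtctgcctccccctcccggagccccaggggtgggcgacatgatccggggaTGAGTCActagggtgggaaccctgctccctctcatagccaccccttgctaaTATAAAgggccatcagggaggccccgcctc
Krt10, chr11:99389365-99389614, minus strand: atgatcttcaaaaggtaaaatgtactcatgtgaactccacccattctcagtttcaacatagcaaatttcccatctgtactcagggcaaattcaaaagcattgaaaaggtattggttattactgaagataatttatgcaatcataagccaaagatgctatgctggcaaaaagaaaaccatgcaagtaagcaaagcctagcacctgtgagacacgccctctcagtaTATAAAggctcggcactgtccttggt

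The motif TGANTCA began 48 bases before the start of Lor, 103 before that of Flg and 81 before that of Krtdap, and TATAAA began 27, 53 and 30 bases before them. In Krt10 TATAAA began 26 bases before the start, and TGANTCA was not found in these letters. The windows of 3 other called genes were read but are not printed: that of Serpinb12 held TGANTCA (N is T) 45 and TATAAA 220 bases before the start, and neither motif was found in those of Klk14 and Calm4. Of 117 called genes, 85 had a promoter entry. TGANTCA, with any base at N, was in 22 of the 85 windows (25.9%), in 5.03% of the 11997 windows of tested genes and in 6.87% of all 27025 windows. The share with C or G at N was not counted. TATAAA was in 24.7% of the called windows, 7.42% of those of tested genes and 12.97% of all. TGANTCA is its own reverse complement, the 2 motifs do not overlap in the windows shown, and many called genes are duplicated neighbors with like promoters, so these shares describe the windows only.

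Lor (chromosome 3, 92080271 to 92083142, GRCm38), the main protein of the cornified envelope, had 15.6, 167.5 and 86.5 CPM in lesser curvature 1, 2 and 3. In the 9 other tumors it had a lowest value of 0.057, a median of 0.122 and a highest of 1.17 CPM, the last in corpus 2. The groups were far apart: the mean was 377-fold higher in the lesser curvature tumors, with a log2 fold change of 8.81 (SE 0.73, adjusted p = 0.00242). Flg (chromosome 3, 93273523 to 93293686), whose product filaggrin packs keratin filaments, had 5.71, 76.5 and 33.6 CPM, and no other tumor was above 0.171. All 3 antrum tumors had 0 counts of Flg, so its mean was at least 411-fold higher (log2 9.67, SE 0.74, adjusted p = 0.00262), with the antrum set at a floor of 3 counts over the group. Rptn, repetin, another filaggrin relative, had 43.2, 394 and 138.0 CPM and at most 7.08 elsewhere (log2 7.52, adjusted p = 0.0106).

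Lor, Flg and Rptn belong to the epidermal differentiation complex, the cluster of cornified envelope genes on chromosome 3. The called genes between 92080271 and 93399442 there numbered 31, of 44 tested genes in the same stretch, and 37 of the 44 did not overlap between the groups. The stretch was bounded by called genes, which raises these counts and the median. The count filter raises them too, as it does the family counts below. Genes at or near 0 counts at the other sites were tested only because the lesser curvature tumors were high. Over all tested genes 0.729% were called, and 1.93% had all 3 lesser curvature tumors above all 9 others. The median log2 fold change of the 44 was 8.63, or 7.06 with the 29 genes that had a site at 0 counts set to their lower bound. Of 20 tested Lce genes 19 were called, and the exception, Lce1m (1.07, 9.46 and 3.57 CPM, adjusted p = 0.1004), had 0 counts in all 9 other tumors. Lce1a1, for example, had 5.28, 34.85 and 20.9 CPM against at most 0.234 (at least 372-fold), and Lce3c 3.89, 24.2 and 18.2 CPM against at most 0.176 (at least 257-fold). Hrnr, hornerin, had 6.51, 65.9 and 24.4 CPM against at most 0.585 (log2 9.81, at least 353-fold), and Kprp, a keratinocyte proline-rich protein, 4.27, 43.95 and 20.4 CPM against at most 0.585 (log2 9.92, at least 217-fold). Reads of near-identical neighbors such as the Lce1 and Sprr2 genes may be split between copies, so single values in those families are uncertain.

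The Sprr family did not move as a unit. Of 14 tested members 5 were called, 10 had a log2 fold change above 0 and the range was -1.59 to 9.56. Of 12 tested S100a genes 1 was called and 4 had a log2 fold change above 0 (median -0.34). Sprr3 had 39.5, 329 and 180.7 CPM in the lesser curvature tumors and 0 counts in 7 of the 9 others, with 1.90 in greater curvature 2 and 8.08 in corpus 2 (log2 9.56, SE 1.73, adjusted p = 0.0675). Sprr1a, present at 3.60 to 201 CPM in the other tumors, had 15.5, 181 and 99.6 CPM (log2 -0.13, adjusted p = 0.943). Involucrin, Ivl, a first-laid scaffold of the envelope, had 0.747, 9.94 and 8.34 CPM against a median of 12.9 in the others (log2 -1.50, adjusted p = 0.538). These last 2 envelope genes overlapped between the groups.

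The suprabasal keratins of both the keratinizing and the moist kind of squamous lining were called. Krt1 (chromosome 15, 101845426 to 101850794), which pairs with Krt10 in keratinizing layers, had 38.6, 832 and 189 CPM and at most 1.52 elsewhere (572-fold, log2 9.29, SE 0.87, adjusted p = 0.00262). Krt10 (chromosome 11, 99385254 to 99389364) had 31.4, 485 and 123 CPM and 0.753 to 3.10 elsewhere (114-fold, log2 6.83, SE 0.63, adjusted p = 0.00262). Krt4 (chromosome 15, 101918535 to 101924735), a suprabasal keratin of the esophagus and other moist linings, had 57.9, 109 and 128 CPM and 0.114 to 2.56 elsewhere (80.9-fold, log2 6.45, SE 0.60, adjusted p = 0.00262). In all 3 genes the lowest lesser curvature tumor stood more than 10-fold above the highest other tumor. Krt13, the partner of Krt4, had 86.7, 552 and 221 CPM, while 4 of the other tumors were above 8 CPM and greater curvature 2 reached 21.2 (37.1-fold, log2 5.26, SE 0.99, adjusted p = 0.0470). The call of Krt13 held in 2 of the 12 fits that each left out a library. Krt16 and Krt6b, keratins induced in stressed and fast-growing epithelia, were called too, at 62.1, 262 and 135 CPM (log2 6.38, adjusted p = 0.00886) and 93.2, 480 and 162.0 CPM (log2 7.36, adjusted p = 0.0352), with corpus 2 highest among the others at 8.13 and 20.9.

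The genes of the basal layer were not called by edgeR, although Krt5 and Krt14 had no overlap between the groups. Krt5 had 53.6, 342 and 168 CPM, against a median of 0.114 in the others, but 45.1 in greater curvature 2 and 8.25 in corpus 2 (log2 6.25, SE 1.51, adjusted p = 0.166). It passed without greater curvature 2 (adjusted p = 0.0340) and with DESeq2 (adjusted p = 0.00694). Krt14 had 85.8, 299 and 193 CPM against 0 to 29.7 elsewhere (log2 4.78, adjusted p = 0.334, or 0.0355 with limma on TPM). Trp63, the master regulator of stratified epithelia, had 3.79, 31.1 and 15.4 CPM, and greater curvature 2, at 3.91, lay above lesser curvature 1 (log2 5.67, adjusted p = 0.0721, 0.0230 without greater curvature 2 and 0.00329 with DESeq2). Among the other tumors Krt5 was above a TPM of 1 in greater curvature 2 (25.2) and corpus 2 (5.09), and Krt14 in these (21.95 and 10.75), in antrum 2 (10.7), in corpus 1 (5.79) and in greater curvature 3 (1.675). Krt6a and Krt17 did not pass with edgeR either (adjusted p = 0.256 and 0.130), but did with DESeq2 (adjusted p = 0.0476 and 0.00204). With the replicate number as a block, Krt5, Trp63, Krt6a and Krt17 passed in edgeR (adjusted p = 0.0456, 0.0317, 0.00985 and 0.00716).

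**Figure D2:**
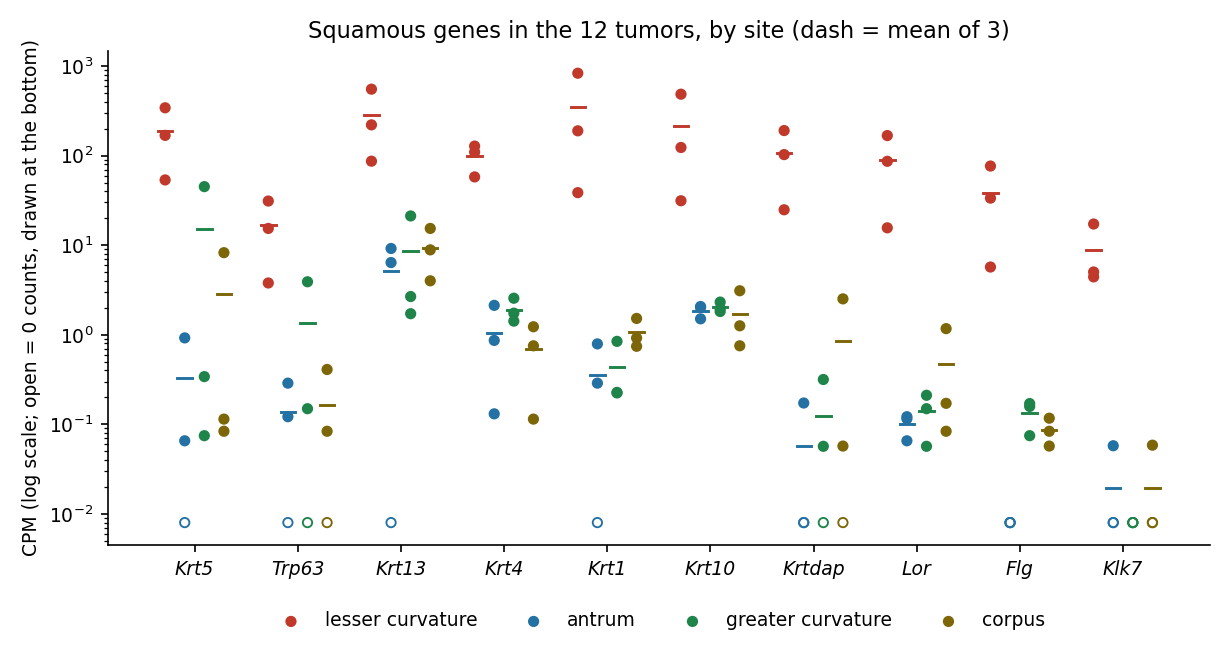
CPM on a log axis for 10 squamous genes in the 12 tumors, with points for tumors, dashes for site means and open circles for 0 counts, drawn at the bottom. For Lor, Krt1, Krt10, Krt4, Krtdap, Flg and Klk7 the lesser curvature points stand clear of all others, while for Krt5 and Trp63 greater curvature 2 (45.1 and 3.91 CPM) comes near or into their range.

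Genes that join squamous cells and control their release were among those called. Of 7 tested desmosomal cadherins, the adhesion proteins of desmosomes, 5 were called: Dsg3 (15.3, 93.9 and 35.4 CPM, log2 6.18), Dsc3 (5.81, 26.1 and 11.03 CPM, log2 5.62), Dsg1a (log2 8.97), Dsc1 (log2 8.24) and Dsg1b. Pkp1, a plakophilin of the desmosome plaque, had 15.3, 102 and 58.7 CPM against 1.64 to 9.03 elsewhere (12.98-fold, log2 3.72, adjusted p = 0.0123), while the other 3 plakophilins had a log2 fold change below 0 and were not called. Corneodesmosin, Cdsn, which glues surface cells together, had 5.81, 27.9 and 23.6 CPM against at most 1.44 (25.9-fold, adjusted p = 0.0119). Every lesser curvature tumor exceeded every other tumor in these called genes. Of all tested genes 0.729% were called higher.

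The proteases and inhibitors around them followed. Of 8 tested kallikrein genes within a 142 kb stretch of chromosome 7 (counted over the called genes, 43690418 to 43832030), 7 were called, and all 8 were without overlap. Bounds set by called genes raise such counts, and so does a filter that genes near 0 elsewhere passed only through the lesser curvature tumors. Of 38 Klk entries 10 were tested, of which 7 were called and 9 had a log2 fold change above 0. Over all tested genes 0.729% were called higher, and 1.93% were without overlap in that direction. Klk7, which cleaves corneodesmosin, had 4.43, 17.2 and 5.03 CPM and at most 0.0585 elsewhere (at least 270-fold, adjusted p = 0.00417). Spink5, whose product inhibits kallikreins, had 13.4, 135 and 37.2 CPM and at most 2.46 elsewhere (161-fold, adjusted p = 0.0176). Asprv1, the protease that trims filaggrin precursor, had 19.3, 152 and 62.2 CPM (74.7-fold, adjusted p = 0.00417). Serpinb12, a serine protease inhibitor of the Serpinb family, had 11.3, 88.0 and 35.95 CPM and at most 0.351 elsewhere, the smallest p-value of all genes tested (704.5-fold, log2 9.78, SE 0.78, adjusted p = 0.00242). Its neighbor Serpinb3a had 2.77, 28.5 and 7.15 CPM and at most 0.0585 elsewhere (at least 273-fold, adjusted p = 0.0153). Of 11 tested Serpinb genes, however, 3 were called and 7 had a log2 fold change below 0.

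Barrier lipid and innate defense genes were among the 117, which are 0.729% of all tested genes. Alox12b and Aloxe3, lipoxygenases of the skin lipid barrier, had log2 fold changes of 6.48 and 4.31 (adjusted p = 0.00981 and 0.0226), as the called ones of 6 tested arachidonate lipoxygenases, of which 3 lay below 0. Abca12, the lipid transporter of lamellar granules, had 4.001, 37.1 and 12.3 CPM (44.8-fold, adjusted p = 0.00625). Of 4 tested members of the interleukin-36 group of cytokine genes, written Il1f in the tables, 3 were called: Il1f6 (interleukin-36 alpha; 1.76, 20.6 and 5.85 CPM, 89.0-fold), Il1f8 and Il1f9. Defb4, a beta-defensin, had 1.76, 5.87 and 3.57 CPM and at most 0.117 elsewhere (at least 69.9-fold, adjusted p = 0.0169). Elf5, an epithelial transcription factor, had 2.61, 5.99 and 3.32 CPM against at most 0.686 (8.69-fold, adjusted p = 0.00625). Of the 117 called genes, 62 lay in 9 clusters of at least 3 called genes no more than 500 kb apart.

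Genes of squamous differentiation outside these families were called as well. Krtdap (chromosome 7, 30787896 to 30791097), a marker of differentiating keratinocytes, had 24.9, 190.5 and 103 CPM and a median of 0.057 elsewhere, with 2.52 in corpus 2 (306-fold, log2 9.01, SE 1.07, adjusted p = 0.00625). Calm4, a calmodulin-like protein of the upper layers, was more even, at 14.5, 20.7 and 19.2 CPM against at most 0.176 (at least 396-fold, log2 9.51, SE 0.72, adjusted p = 0.00262). Mt4, the metallothionein of squamous epithelia, had 2.08, 20.4 and 7.67 CPM against at most 0.0747 (at least 199.9-fold, log2 9.70, adjusted p = 0.0162). The 3 genes had no overlap with the other tumors, and neither had Gsdma, the gasdermin of squamous cells (4.48, 27.2 and 9.69 CPM, 51.1-fold), and Cst6, a cystatin protease inhibitor of the skin (2.35, 8.74 and 5.23 CPM, 17.0-fold). Of 6 tested genes of the Tmprss11 group of membrane proteases, 4 were called, where 0.729% of all tested genes were. The log2 fold changes of the 6 ran from 1.22 to 5.66. Tgm1, the transglutaminase that cross-links the envelope, did not pass, at 6.08, 31.1 and 20.9 CPM against at most 5.33 (log2 2.93, adjusted p = 0.0541), nor did the gap junction gene Gjb2 (log2 4.26, adjusted p = 0.0515).

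The 3 lesser curvature tumors were not alike in the amount of this program. Lesser curvature 2 was highest, 3 second and 1 lowest in 105 of the 117 genes, with a median ratio of 6.35 between lesser curvature 2 and 1 and of 2.94 between 3 and 1. The called genes took 0.104%, 0.633% and 0.287% of all counts in lesser curvature 1, 2 and 3, and at most 0.0136% in any other tumor, which was corpus 2. Corpus 2 was the highest of the other tumors in 59 of the 117 genes and greater curvature 2 in 20. Summed over the squamous list, the 3 lesser curvature tumors had 595 to 3277 CPM, the antrum tumors 7.14 to 158, the greater curvature tumors 113 to 398.5 and the corpus tumors 101 to 241. The number of calls fell to 44 without lesser curvature 2 and to 44 without lesser curvature 3, and was 122 without lesser curvature 1, while all 117 genes kept a log2 fold change above 0 in each of those fits. It fell to 77 without greater curvature 1, 74 without antrum 2, 64 without corpus 1, 77 without corpus 2 and 64 without corpus 3, and to 40 without greater curvature 2 and corpus 1 together.

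Of the normal libraries, normal 2 held these genes too. A total of 103 of the 117 called genes had a TPM of at least 1 in normal 2 and at least 10 times that of either other normal, a pattern found in 1.45% of all tested genes (233). Of those 103, 98 had a higher TPM in normal 2 than in the mean of the lesser curvature tumors, with a median ratio of 4.36. Krt1 had a TPM of 1611 in normal 2, 26.3, 524 and 126 in lesser curvature 1, 2 and 3, and at most 0.826 in the other tumors and normals. Lor had 635 in normal 2 against 15.1, 148 and 81.6, and Krtdap, a keratinocyte differentiation gene, 4800 against 193, 1191 and 800. The called genes took 1.81% of the counts of normal 2 and 0.00446% and 0.00589% of those of normals 1 and 3. Because the fit held tumors only, normal 2 had no part in the calls. With all 15 libraries in the model 1 gene was called, and with normal 2 alone left out 141 were, including all 117.

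Ratios of suprabasal to basal keratin RNA differed between normal 2 and the lesser curvature tumors. The ratio of Krt1 to Krt5, suprabasal to basal on the TPM scale, was 10.4 in normal 2, but 0.638, 2.14 and 0.996 in lesser curvature 1, 2 and 3, 0.162 in corpus 2 and 0.0166 in greater curvature 2. The ratio of Krt10 to Krt14 was 11.8 in normal 2 and 0.303, 1.33 and 0.514 in the 3 tumors, and other tumors with Krt14 above a TPM of 1 lay on both sides and within: 0.122 in greater curvature 2, 0.153 in corpus 1, 0.358 in corpus 2, 0.450 in antrum 2 and 1.95 in greater curvature 3. The ratio of Krt13 to Krt5 was 8.08 in normal 2, 1.86 to 2.51 in the lesser curvature tumors, 3.32 in corpus 2 and 0.754 in greater curvature 2. Corpus 2 was thus below the lesser curvature tumors in the first of these ratios, within them in the second and above them in the third. Krt5 itself was 155.5 TPM in normal 2, within the 41.2 to 245 of the lesser curvature tumors. Krt16 and Krt6b ran the other way, at 9.51 and 32.8 TPM in normal 2 and 69.2 to 273 and 70.4 to 328 in the lesser curvature tumors. With 1 such normal library these contrasts have no replicate check, and no test was made.

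**Figure D3:**
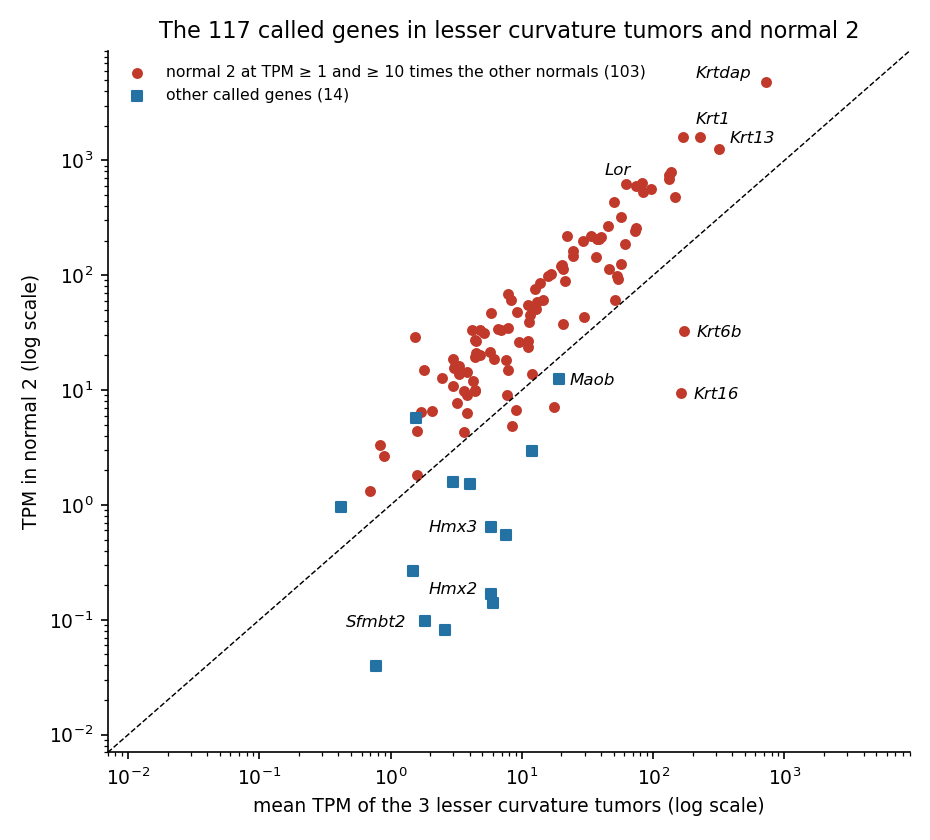
TPM of the 117 called genes in normal 2 (y axis) against their mean TPM in the 3 lesser curvature tumors (x axis), both on log scales, with the dashed line at equality. Of the 103 red genes, found mainly in normal 2 among the normals, 98 lie above the line; Krt16 and Krt6b lie below it, and so do most of the 14 blue genes.

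**Figure D4:**
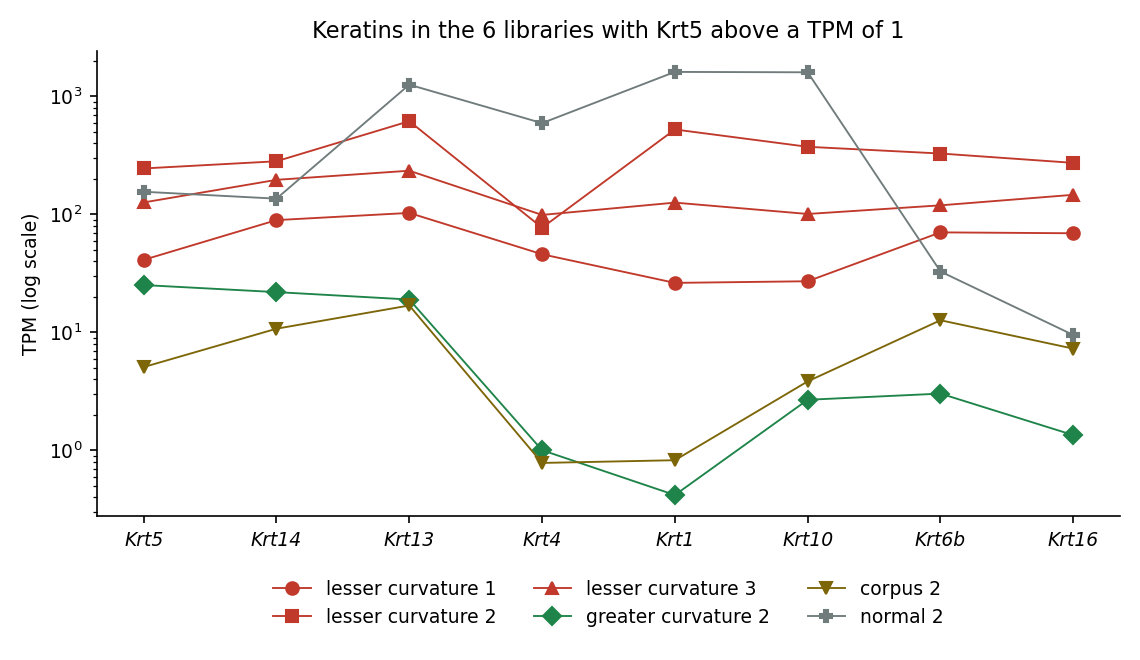
TPM of 8 keratins, on a log axis, in the 6 libraries with Krt5 above a TPM of 1, lines joining the values of a library. In normal 2 the suprabasal keratins Krt13, Krt4, Krt1 and Krt10 stand above Krt5 and Krt14 and the stress keratins Krt6b and Krt16 below them, while in the lesser curvature tumors Krt6b and Krt16 lie at about the level of Krt5 and Krt14, and in greater curvature 2 and corpus 2 Krt4 and Krt1 are low.

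The other 14 called genes did not share that pattern in the normals. Hmx3, a homeobox transcription factor known from the inner ear and hypothalamus, had 4.48, 7.19 and 4.14 CPM in the lesser curvature tumors against at most 1.55 elsewhere (11.8-fold, log2 3.84, SE 0.52, adjusted p = 0.00981). Its neighbor in the genome and relative, Hmx2, had 9.87, 5.27 and 5.23 CPM against at most 2.84, in greater curvature 1 (7.09-fold, log2 3.004, SE 0.54, adjusted p = 0.0374). Neither overlapped between the groups, and their TPM was at most 0.638 in the normals. The call of Hmx3 held in 11 of the 12 fits that each left out a library, that of Hmx2 in 2, and those of Maob, Lhx6 and Sfmbt2, described next, in 8, 5 and 1. Lhx6, a LIM homeobox factor of cortical interneurons, had 7.41, 3.59 and 4.61 CPM against 0.837 to 2.42 (3.83-fold, adjusted p = 0.0184). Maob, monoamine oxidase B, which breaks down amine transmitters, had 23.1, 30.3 and 31.4 CPM against 2.99 to 17.2 (2.86-fold, log2 1.67, SE 0.26, adjusted p = 0.0165), and a TPM of 5.81 to 12.5 in the normals. In Hmx2, Lhx6, Sfmbt2 and Gckr lesser curvature 1, the tumor with least squamous RNA, was the highest. Sfmbt2, a Polycomb-related repressor, rested on 2 tumors: it had 17.3, 0.240 and 7.41 CPM, so lesser curvature 2 lay below the other sites' median of 0.419 (log2 4.21, adjusted p = 0.0249). The rest included Sprr2h, Tmprss11b, Tmprss11d, H60c, Trpv3, Gckr, Ces2f and Kif19a.

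Against each of the other sites alone, edgeR called no gene, higher or lower. Against the antrum 394 genes were higher (2.46%) and 239 lower (1.49%) at an unadjusted p under 0.05. Against the greater curvature they numbered 436 (2.72%) and 398 (2.48%), and against the corpus 1221 (7.61%) and 932 (5.81%). DESeq2 called 145 higher (0.904%) and 42 lower (0.262%) against the antrum, 127 (0.792%) and 33 (0.206%) against the greater curvature, and 293 (1.83%) and 155 (0.966%) against the corpus. These 3 comparisons share the lesser curvature tumors. All 117 genes had a log2 fold change above 0 in each, with medians of 7.44, 5.93 and 5.93. Lor was higher by log2 9.68, 9.25 and 7.49 (adjusted p = 0.102, 0.120 and 0.165), and Krt10 by 6.83, 6.71 and 6.94. The smallest adjusted p-values over all genes were 0.102, 0.120 and 0.165.

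Outside the squamous list, 43 lists of cell type markers and pathways held 535 tested genes, none of which edgeR called. At an unadjusted p under 0.05, 19 of them were higher and 20 lower, where 6% and 3.55% of all tested genes were. DESeq2 called 4 higher (Alb, Hoxc4, Nos1 and Notch3) and 9 lower (Cela2a, Cela3b, Cpb1, Muc6, Pdx1, Prss2, Six2, Try4 and Try5). Over all tested genes DESeq2 called 1.45% higher and 0.692% lower. The markers of glandular stomach lay below 0 as groups. All 10 tested parietal cell genes, all 7 chief cell genes and all 12 pit and neck mucous genes had a log2 fold change below 0, with medians of -1.42, -2.37 and -1.73, where 48.8% of all tested genes did. None of the 29 was without overlap. The chief list includes Cpb1, a pancreatic carboxypeptidase and its only member that DESeq2 called lower. Pgc, the pepsinogen of chief cells, had 2.24, 2727 and 991.5 CPM in lesser curvature 1, 2 and 3 and 198 to 81920 in the others (log2 -3.13, adjusted p = 0.522). Muc6, the mucin of deep glands, had 19.4, 214.5 and 132 CPM against 117 to 2605 (log2 -2.97, adjusted p = 0.473). Lesser curvature 1 was the lowest library of the 3, with 98.0 CPM over the parietal list, 30.9 over the chief list and 283.5 over the pan-epithelial list, where lesser curvature 2 had 1269, 7236 and 5057. The order of the 3 libraries in the squamous genes was thus that in the glandular lists, and the part of epithelial content in the squamous values was not tested.

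Pancreatic acinar enzymes, which digest protein, fat and starch, had the lowest median of the 44 lists, -3.82, with all 12 tested members below 0. EdgeR called none of them, and DESeq2 called 5 lower. Prss2, a trypsinogen, had 0, 0.240 and 0 CPM in the lesser curvature tumors and 1.69 to 134 in the others, with no overlap (log2 -9.21, adjusted p = 0.149). Try5, another trypsinogen, had 0.480, 1.56 and 0 CPM against 2.16 to 287 (log2 -6.57, adjusted p = 0.446), again with no overlap. Summed over the list, the lesser curvature tumors had 4.001 to 2168 CPM and the corpus tumors 4747 to 19130. The antrum tumors had 532.8 to 3022 and the greater curvature tumors 1614 to 15360, so both sites overlapped with the lesser curvature. The interferon response list lay below 0 in 18 of 20 genes (median -1.75) and the antigen presentation list in 13 of 13 (median -1.27). For example, Gbp2, an interferon-induced GTPase, had 2.03, 5.03 and 1.92 CPM against 1.18 to 95.4 (adjusted p = 0.511). Corpus 1, with 282 CPM of the antiviral gene Rsad2 where the lesser curvature tumors had 2.08, 11.6 and 2.38, was the highest library.

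Growth genes leaned the other way by small amounts. All 22 Myc targets of ribosome production (median 0.48), 21 of 22 mitosis genes (median 0.47) and 27 of 28 DNA replication genes (median 0.31) had a log2 fold change above 0, as 51.2% of all tested genes did. None was called by edgeR or DESeq2 and none was without overlap. The libraries were uneven: summed over the mitosis list, the lesser curvature tumors had 2469 to 3783 CPM, antrum 1 and greater curvature 3 had 3632 and 3719, and greater curvature 2 and corpus 1, the pair at the far end of the first principal component, had the lowest sums, 1107 and 1351. The same pair was lowest over the Myc targets, at 2834 and 3084 CPM against 6214 to 9069 in the lesser curvature tumors, and over the replication list. The part of these 2 libraries in the medians was not tested. Rrp12, a ribosome assembly factor, had 78.2, 49.2 and 69.5 CPM against 24.8 to 63.0 (log2 0.64, adjusted p = 0.510). Myc itself had 831, 192 and 545.5 CPM against 101 to 506.5 (log2 1.10, SE 0.49, adjusted p = 0.519). No source used here says if transgenic Myc RNA is counted with it. Pou2f3 (log2 -0.26), Rb1 (-0.10) and Trp53 (-0.24) had adjusted p-values of 0.880, 0.795 and 0.683.

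The neuroendocrine side of the tumors was present in all 3. Endocrine transcription factors were above 0 in 11 of 14 (median 0.99): Neurod1 had 99.0, 74.8 and 68.7 CPM against 0.581 to 84.7 (log2 1.57, adjusted p = 0.522), and Prox1 193, 79.3 and 127 against 5.44 to 185 (log2 1.30, adjusted p = 0.522). Both genes were lowest in greater curvature 2, and the highest other tumor lay within the range of the lesser curvature tumors. Chga, chromogranin A of hormone granules, had 443, 1527 and 517 CPM against 194 to 5329 (log2 -1.08, adjusted p = 0.599), and Syp, the vesicle protein synaptophysin, 118, 60.7 and 84.5 against 5.91 to 140 (log2 0.58, adjusted p = 0.650). Among tuft cell genes 12 of 15 lay below 0 (median -0.81), but the tuft marker Dclk1 had 38.7, 39.6 and 65.0 CPM against 8.81 to 39.5 (log2 0.87, adjusted p = 0.413). Enteric neuron and glia genes were above 0 in 9 of 11 (median 1.39). Nos1, neuronal nitric oxide synthase, had 14.2, 4.91 and 3.57 CPM against 0.458 to 3.01, with no overlap (log2 2.33, adjusted p = 0.102).

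Neutrophil genes were above 0 in 10 of 10 (median 0.98) and CXCR2 ligands and receptors in 7 of 7 (median 0.63), with none called. Greater curvature 2 had the highest sum over both lists, 742.5 and 161.9 CPM. The lesser curvature tumors had 183.0 to 254.1 CPM over the neutrophil list and 76.2 to 91.6 over the CXCR2 list. S100a8 and S100a9, the paired calcium-binding proteins of neutrophils that squamous cells also make, had 33.3, 23.5 and 18.6 CPM against at most 11.7 (log2 2.66, adjusted p = 0.290) and 43.4, 22.9 and 21.96 CPM against at most 15.6 (log2 2.41, adjusted p = 0.370), both without overlap. Ppbp, a CXCR2 ligand, had 5.28, 10.1 and 15.5 CPM against 0.0837 to 8.82 (log2 2.56, adjusted p = 0.425), and Cxcl5, another, 8.21, 38.8 and 15.95 against 0.590 to 93.2 (log2 0.28, adjusted p = 0.878). Alb, the albumin of liver, had 17.5, 7.19 and 4.56 CPM against 0.404 to 3.21, without overlap (log2 2.52, adjusted p = 0.0911), while 6 of the 10 hepatocyte genes lay below 0. Among position genes, Hoxc4 had 0.640, 3.47 and 1.87 CPM against 0.114 to 1.003 (log2 2.38, adjusted p = 0.166) and Six2 0.427, 0.599 and 0.466 against 0.796 to 2.10 (log2 -1.41, adjusted p = 0.197). The last 2 genes are low, at 5 to 9 counts of Six2 in each lesser curvature tumor.

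**Figure D5:**
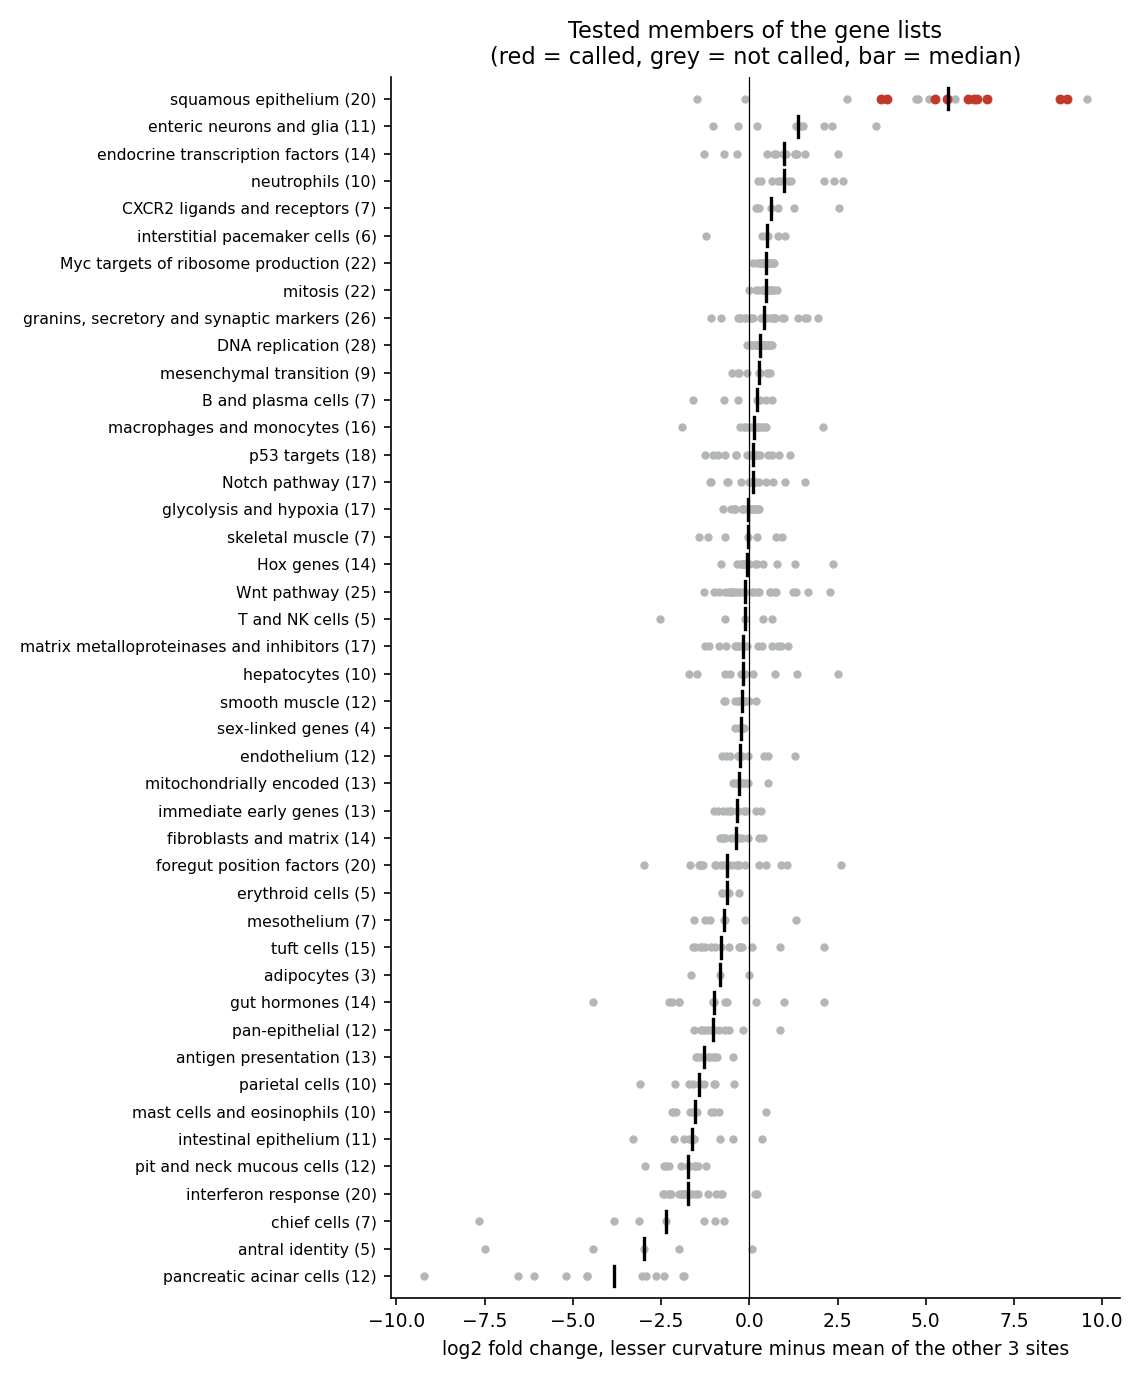
Log2 fold change of the tested members of the 44 gene lists, lesser curvature over the mean of the other 3 sites, with red for called and grey for not called genes, a bar at each median and the number tested in brackets. All 10 red points are in the squamous list, whose median is 5.64, and the medians of the other lists run from -3.82 for pancreatic acinar cells to 1.39 for enteric neurons and glia.

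In the lower direction edgeR called no gene, where DESeq2 called 111 (0.692%), and the 10 genes of smallest p with a mean of at least 2 CPM were Rgs3, Pdk2, Btg2, Nupr1, Higd2a, Clcn2, Kcnj11, Pxylp1, Lrmp and Bri3. Rgs3, which shortens G protein signals, had 18.1, 26.5 and 22.4 CPM against 30.9 to 45.5 (log2 -0.71, SE 0.15, adjusted p = 0.0755). Pdk2, a kinase that restrains pyruvate use in mitochondria, had 7.15, 13.5 and 9.95 CPM against 15.1 to 42.6 (log2 -1.44, adjusted p = 0.0924). Nupr1, a stress-induced chromatin protein, had 14.6, 39.8 and 28.3 CPM against 50.5 to 168 (log2 -1.69, adjusted p = 0.129), and Btg2, an antiproliferative p53 target, 83.5, 114 and 84.4 against 141 to 227 (log2 -0.82, adjusted p = 0.0965). In each of the 10 the 3 lesser curvature tumors lay below all 9 others, as 0.854% of all tested genes did. The 10 were picked by p-value from these same tumors, which favors such separation. Corpus 1 was the highest library for Pdk2, Btg2, Nupr1, Higd2a and Bri3.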

How the data were processed

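Per the labels, total RNA of stomach tissue was read as paired ends of 100 bp. Per the submitters' processing notes, kallisto 0.44.0, sleuth, DESeq2 and GRCm38.p6 were used, roles not given. The deposited table of estimated counts, given as whole numbers by the authors, was fitted with edgeR 4.0.16 in R 4.3.3 (filterByExpr, minimum count 10; TMM; robust quasi-likelihood; group as the only term). The contrast weighted the 3 other sites equally, and p-values were adjusted by Benjamini and Hochberg over 16042 genes of 36144 entries. The second deposited table, named for FPKM, sums to 1e+06 in each library and was read as TPM; limma 3.58.1 used log2(TPM + 1). A symbol turned into a date was left unnamed (24 symbols). SE is that of the log2 fold change. For folds, a site at 0 was set to 3 counts over its libraries, a floor for counting error only. The log2 fold changes do not use it, except in the medians given at a lower bound. Coordinates are from GENCODE M21. The fit was run on simulated data with a lower dispersion than these data (common dispersion 0.27 here), so that run is no check on the calls.

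The members and lists (44, with 641 genes, 6 absent) were chosen with earlier results of these data known. Genes named by rule were the engineered and marker genes, the 15 largest called changes without overlap, the 10 smallest p-values where none was called, and up to 4 of each list by p; the other named genes were picked after their values were seen.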

Additional observations from a re-analysis of the deposited data

How the results depend on the processing

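All 117 genes called higher kept a log2 fold change above 0 in every other fit that held them. The number called was 115 with DESeq2 size factors, 233 (116 of the 117 shared) with DESeq2 1.42.0, 129 with no filter, 131 with limma on TPM, where the median gene stood at 0.26, 107 against a 1.5-fold change, 125 with the 9 other tumors as 1 group and 1 with all 15 libraries. Fits that each left out a library gave 44 to 122 higher and 0 to 3 lower. Fits added after the data were seen gave 141 higher and 3 lower without normal 2 in the model of the other 14, 40 higher without greater curvature 2 and corpus 1, and 56 without greater curvature 2 and corpus 2. DESeq2 called 111 lower.

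Against the antrum, greater curvature and corpus alone, where edgeR called none, the higher genes numbered 145, 127 and 293 with DESeq2 and 96, 81 and 100 with limma on TPM, and the lower genes 42, 33 and 155 with DESeq2 and 1, 0 and 1 with limma. Without a library, 0 to 5, 0 to 5 and 0 to 3 were higher, and without greater curvature 2 and corpus 2 there was 1 against the corpus. The cause of these differences was not tested.

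Of same-numbered pairs, 8 of 9 without a corpus tumor correlated above 0.1 (-0.176 to 0.696) and 1 of 9 with one (-0.568 to 0.420), so the numbers were not taken to pair all 4 sites, and 7 of 12 samples correlated best with a sample of their own number, a hint from the data and not the design. Y-linked counts also split number 1, at 2569 in corpus 1 but 80, 55 and 101 in antrum 1, greater curvature 1 and lesser curvature 1. That is a further reason not to read number 1 as a single animal across all 4 sites. With the replicate block 112 genes were higher than in the mean of the other sites, 98 of them among the 117, and 6, 5 and 2 were higher than in the antrum, greater curvature and corpus.

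With 3 tumors a site, and lesser curvature 2 at less than the depth of any other library, genes of a few counts limit precision. Of the 117 genes 46 had a site at 0 counts, so their folds are lower bounds. Their log2 fold changes do not use the floor and are not bounds.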
